A study of Mus musculus with 12 samples.

Results

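The CD200R, CD300 and LILR-type receptors were examined as a set of 9 genes chosen by name, out of 32227 genes in the count table: Cd200r1, Cd200r3 and Cd200r4 of the CD200R family, Cd300a, Cd300lf, Cd300ld and Cd300lb of the CD300 family, and Lilrb4a and Pirb of the LILR type. All 9 passed the filter on low counts and were among the 15083 genes tested, and each had at least 12 counts in every library. Bulk RNA sequencing had been carried out on basophil-lineage cells sorted from C57BL/6J wild-type mice, with 3 libraries in each of 4 groups. BaPs were CD34+ basophil progenitors, pre-basophils were the cells called immature in the labels and sorted as CD34- CLEC12A-high CD9-low, and BM mature basophils were sorted as CLEC12A-low CD9-high, all from the bone marrow, whereas spleen mature basophils came from the spleen. Cells of all groups were CD200R3+ and c-Kit-, so that the level of Cd200r3 was not independent of the sort, and a library held cells pooled from several animals of a single experiment, so that p-values measure the spread between such pools. In bulk libraries of this kind, fewer cells expressing a gene and less RNA per cell cannot be told apart.

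These receptors belong to the paired immune receptors, families that lie in gene clusters and hold members with opposite effects on the cell. Inhibitory members carry tyrosine motifs in the cytoplasmic tail that recruit phosphatases or, for CD200R1, Dok adaptor proteins, and they restrain signals such as those of the IgE receptor. Activating members have a short tail and signal through a partner with an ITAM, DAP12 (Tyrobp) or the Fc receptor gamma chain (Fcer1g). Basophils and mast cells carry several of them at the surface, and CD200R3 is used as a marker of both cell types.

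Total counts lay between 3596108 and 8151030 per library. All 10 basophil markers had counts in every library, and their summed level was between 11779 and 72379 CPM (counts per 1000000, with TMM scaling of the library sizes). The list includes Cd200r3, on which the cells were sorted. Prss34 and Mcpt8 had means of 45144 and 11892 CPM in pre-basophils and 921 and 653 CPM in spleen mature basophils, so the sum is no measure of purity across groups. Transcripts of the sort markers had means of 259, 235, 35.6 and 12.8 CPM for Clec12a, 224, 432, 596 and 525 CPM for Cd9, 27.1, 10.8, 7.38 and 8.15 CPM for Cd34 and 16.8, 2.62, 0.502 and 0.806 CPM for Kit, in the order BaP, pre-basophil, BM mature and spleen mature. One library, BaP replicate 3, stood apart. Its basophil markers summed to 25645 CPM against 62413 and 67716 CPM in the other BaP libraries. Its T and NK cell markers summed to 1135 CPM against 341 and 445 CPM, and its erythroid and megakaryocyte markers to 2937 CPM against 460 and 464 CPM. Monocyte and macrophage markers summed to 467 CPM in it against 95.6 and 113 CPM, and B cell markers to 184 CPM against 34.9 and 35.8 CPM. Eosinophil markers summed to 216 CPM against 40.5 and 67.4 CPM. The neutrophil, mast cell and dendritic cell sums of this library were also the highest among the BaP libraries. Neutrophil markers summed to 1998 to 2736 CPM in BaPs and 1073 to 2473 CPM in pre-basophils, against 304 to 360 CPM in BM mature cells and 262 to 270 CPM in spleen mature basophils. Members of this list differed in direction. In the group order given above, means were 1252, 508, 47.1 and 13.9 CPM for Mpo and 174, 175, 7.70 and 7.51 CPM for S100a8. Those of Cxcr2 were 31.4, 67.2, 188 and 187 CPM. S100a8 ran from 14.6 to 370 CPM over the BaP libraries. B cell markers summed to 205 to 357 CPM in spleen mature basophils against 38.2 to 52.6 CPM in BM mature basophils. The part of these differences in the levels of the receptors was not tested.

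In the GENCODE M21 annotation of GRCm38 the receptors lay in 4 places. The 3 CD200R genes spanned 215.6 kb of chromosome 16 on the plus strand, with Cd200r1 at 44765736 to 44794978, Cd200r4 at 44811733 to 44839150 and Cd200r3 at 44943678 to 44981380. The 4 CD300 genes spanned 244.0 kb of chromosome 11, with Cd300a at 114890041 to 114904654 on the plus strand and Cd300lb (114922781 to 114934386), Cd300ld (114982274 to 114989922) and Cd300lf (115116214 to 115133992) on the minus strand. Lilrb4a lay on the plus strand of chromosome 10 at 51490956 to 51496611, directly after its close relative Lilr4b at 51480632 to 51486703, and Pirb lay on the minus strand of chromosome 7 at 3711409 to 3720391. All are annotated as protein coding.

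The promoters of 4 receptors are shown because the first pair changed together between BaPs and pre-basophils and the second pair between pre-basophils and BM mature basophils. Each is the RefSeq sequence (GRCm38.p6) from 250 bases before to 50 bases after the annotated start, 5′ to 3′ on the gene's strand, at chr16:44943428-44943727 for Cd200r3 and chr16:44820478-44820777 for Cd200r4 (both plus), and at chr11:114934322-114934621 for Cd300lb and chr7:3720333-3720632 for Pirb (both minus). Capitals mark matches on either strand to the letters AGATAA of GATA factors, to GAGGAA, the letters searched for PU.1, to TGTGGT, those searched for RUNX factors, and to TTGCNNAA, those searched for C/EBP factors.

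Cd200r3: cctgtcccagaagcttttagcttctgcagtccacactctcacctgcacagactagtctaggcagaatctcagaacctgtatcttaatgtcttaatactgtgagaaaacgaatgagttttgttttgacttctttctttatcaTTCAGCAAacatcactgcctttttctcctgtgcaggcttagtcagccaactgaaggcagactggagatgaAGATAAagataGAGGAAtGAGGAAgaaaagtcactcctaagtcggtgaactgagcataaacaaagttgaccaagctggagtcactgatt

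Cd200r4: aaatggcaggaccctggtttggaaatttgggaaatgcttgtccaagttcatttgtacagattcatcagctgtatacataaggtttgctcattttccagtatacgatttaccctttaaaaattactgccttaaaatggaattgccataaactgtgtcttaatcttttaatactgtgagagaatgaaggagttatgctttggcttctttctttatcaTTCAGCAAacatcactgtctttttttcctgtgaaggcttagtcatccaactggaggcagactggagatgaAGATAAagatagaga

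Cd300lb: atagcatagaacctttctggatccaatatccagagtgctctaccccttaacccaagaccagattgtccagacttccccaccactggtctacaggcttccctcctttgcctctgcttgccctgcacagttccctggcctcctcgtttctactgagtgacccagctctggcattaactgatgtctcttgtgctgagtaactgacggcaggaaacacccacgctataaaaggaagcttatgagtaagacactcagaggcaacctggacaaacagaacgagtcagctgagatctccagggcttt

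Pirb: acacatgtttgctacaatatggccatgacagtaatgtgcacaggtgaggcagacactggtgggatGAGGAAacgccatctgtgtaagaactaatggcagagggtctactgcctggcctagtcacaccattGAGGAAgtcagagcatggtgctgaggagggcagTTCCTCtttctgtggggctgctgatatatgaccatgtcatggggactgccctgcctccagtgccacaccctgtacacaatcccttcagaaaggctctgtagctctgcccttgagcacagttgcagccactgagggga

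The Cd200r3 and Cd200r4 promoters aligned over 156 bases without a gap, and 140 of these bases (89.7%) were identical. The C/EBP match and the GATA match of each lay inside this stretch, with the GATA match 39 bases before the annotated start of Cd200r3 and 35 bases after that of Cd200r4, whose RefSeq start lies downstream of the GENCODE gene start. Among 32851 promoters of the same length, 11.2% held the GATA letters, 10.8% the C/EBP letters, 28.3% the PU.1 letters and 16.8% the RUNX letters. Cd200r3 also held 2 matches to the PU.1 letters and Pirb held 3, whereas the Cd300lb promoter held none of the 4 motifs, and no match overlapped another. RefSeq entries were found for 7 of the 9 receptors, and none for Cd200r1 and Lilrb4a. The promoters not shown belong to Cd300lf, Cd300ld and Cd300a, none of which was called in a pairwise comparison. They held matches too, with 2 to PU.1 and 1 to RUNX for Cd300lf, 1 to PU.1 for Cd300ld and 1 each to PU.1 and C/EBP for Cd300a.

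The levels per kilobase of annotated exon differed widely between the receptors. This length was the union of the exons of all annotated transcripts, 5227 bases for Lilrb4a and 5984 for Cd200r3. The transcripts of these genes with the longest coding sequence had 1381 and 986 bases, so that the ranking between receptors depends on the length used. For Cd300a such a transcript had 4645 bases, close to its exon union of 4738. Scaling by length also takes reads as even along a transcript, which was not examined for these amplified cDNA libraries. In BM mature basophils Lilrb4a, which encodes the inhibitory receptor gp49B, had 548 ± 55.4 CPM per kilobase of annotated exon (SD, n = 3), and Cd200r3 had 187 ± 5.64. Cd200r1 and Cd200r4 followed with 39.4 ± 5.0 and 22.0 ± 2.92 CPM per kilobase. Cd300lb, Cd300a and Pirb lay close together at 10.4 ± 2.24, 10.1 ± 0.954 and 9.09 ± 1.04, and Cd300ld and Cd300lf were lowest at 2.21 ± 0.180 and 1.21 ± 0.0375. In BaPs the level of Lilrb4a per kilobase was 86.0 ± 8.47 and that of Cd200r3 79.1 ± 26.2. On this length the 2 genes differed by less than the spread of the BaP libraries, and their order there rests on the length used. Together the 9 receptors took 0.124% ± 0.0164 of all counts of BaPs, 0.247% ± 0.00918 of those of pre-basophils, 0.373% ± 0.00244 for BM mature and 0.297% ± 0.0233 for spleen mature basophils (SD of 3 libraries each), and the part of Lilrb4a in these counts was 42.4% ± 6.29, 51.5% ± 1.72, 66.6% ± 3.33 and 64.4% ± 2.19.

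**Figure D1:**
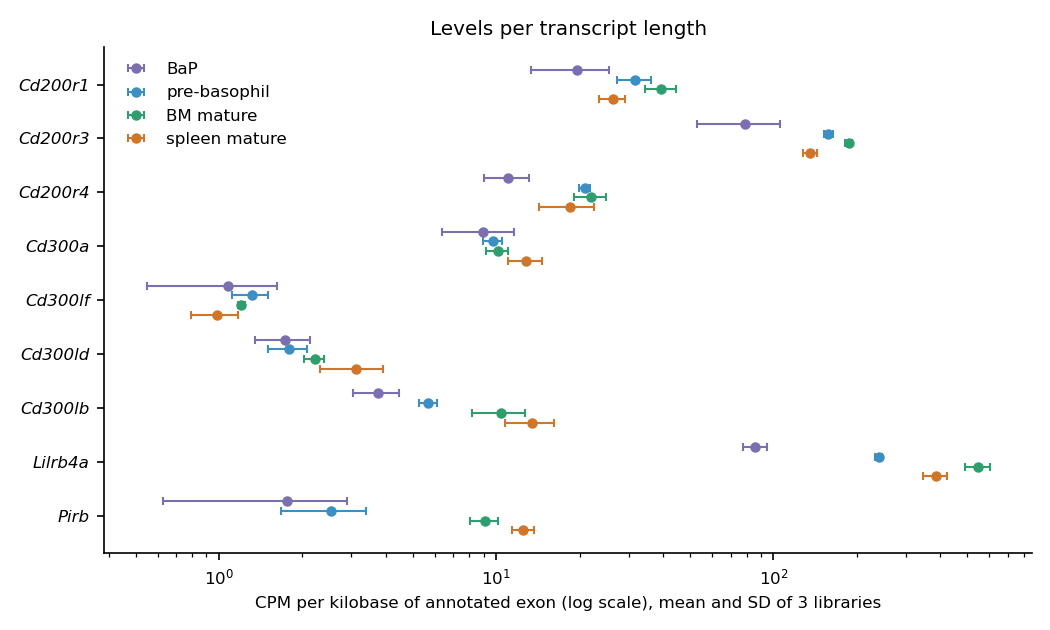
Level of each receptor per kilobase of annotated exon (x axis, CPM per kilobase, log scale) in the 4 groups (colours). Points are means and bars the SD of 3 libraries, and the levels ran from 0.983 CPM per kilobase for Cd300lf in spleen mature basophils to 548 for Lilrb4a in BM mature basophils.

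Differences among the 4 groups were called for 7 of the 9 receptors in edgeR's quasi-likelihood test (adjusted p under 0.05), where 57.8% of all tested genes were called. Cd300a (edgeR adjusted p 0.107) and Cd300lf (0.640) were not called, and Cd300ld lay near the threshold (edgeR adjusted p 0.0319). The call of Cd300ld was lost without BaP replicate 1 (0.0528), pre-basophil replicate 1 (0.0700), pre-basophil replicate 2 (0.0627), BM mature replicate 1 (0.0526), spleen mature replicate 1 (0.0508) or spleen mature replicate 3 (0.172). Cd300a was called without BaP replicate 2 (edgeR adjusted p 0.0476) or BaP replicate 3 (0.0375). In 3 receptors, Cd300lb, Lilrb4a and Pirb, all 6 BaP and pre-basophil libraries lay below all 6 mature libraries, a separation in either direction that 28.3% of tested genes showed.

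**Figure D2:**
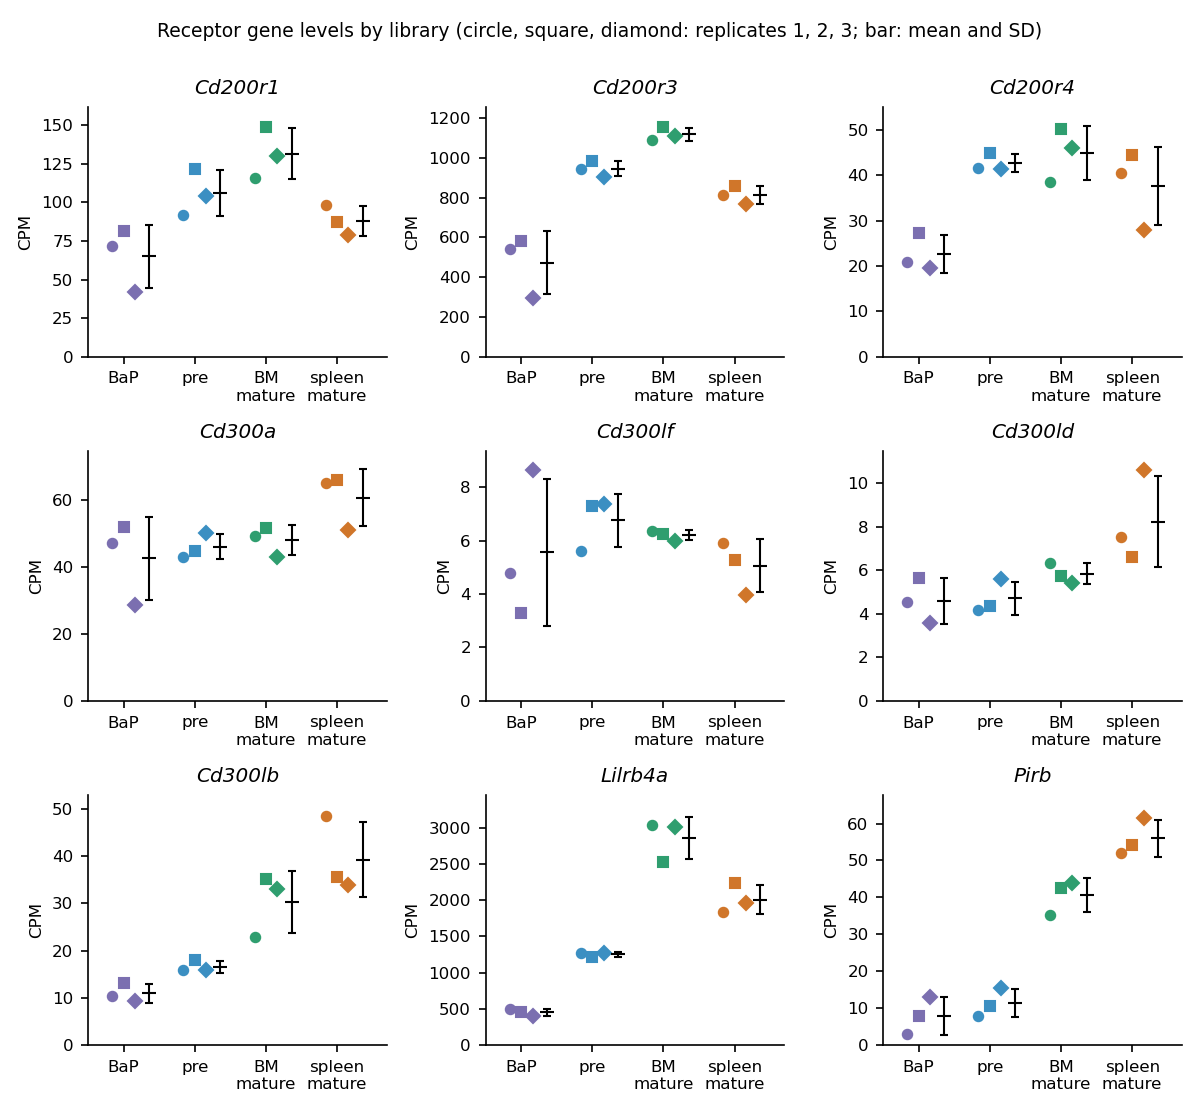
Level of each receptor in CPM (y axes, from 0) in every library of the 4 groups (x axes), with circles, squares and diamonds for replicates 1, 2 and 3 and bars for the mean and SD. The 3 CD200R genes had their lowest mean in BaPs, for Cd200r1 with an overlap with the spleen libraries, whereas all early libraries of Lilrb4a, Pirb and Cd300lb lay below all mature ones.

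Between BaPs and pre-basophils, the question was how progenitors defined by CD34 differed from CD34- cells. Cd200r3, Cd200r4 and Lilrb4a were lower in BaPs, and none of the 9 receptors was higher, which made 3 called receptors, against 7.08% of all tested genes called and 4.29% called lower. The median log2 fold change of the receptors was -0.62, and that of all tested genes 0.02. Over the 10 basophil markers, which include Cd200r3, it was -0.73, with 5 called lower and 0 higher. The libraries of both groups did not overlap for 5 receptors (25.1% of tested genes), the other 2 being Cd200r1 and Cd300lb. Without BaP replicate 3, 5 receptors were called, and calls over all tested genes went from 1068 to 1831, which were 12.4% of the 14723 genes tested then.

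Pre-basophils and BM mature cells come from 1 tissue and differ in the CLEC12A and CD9 gate. Here Cd300lb, Lilrb4a and Pirb were lower in pre-basophils and none was higher. These 3 calls stood against 27.3% of all tested genes called and 11.0% called lower. The median log2 fold change was -0.28 over the receptors and 0.00 over all tested genes (-0.0044). Over the 10 basophil markers it was -0.25, with 2 called lower and 4 higher. The libraries did not overlap for 4 receptors, these 3 and Cd200r3, as in 47.0% of tested genes.

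Between BaPs and BM mature basophils, the ends of the bone marrow series, 6 receptors were lower in BaPs (Cd200r1, Cd200r3, Cd200r4, Cd300lb, Lilrb4a and Pirb), against 45.0% of all tested genes called and 19.7% called lower. The same 6 had libraries that did not overlap (52.0% of tested genes). The median log2 fold change was -1.03 for the receptors and 0.05 for all tested genes. For the 10 basophil markers it was -1.07, with 6 called lower and 2 higher. This comparison shares its libraries with both steps above and is no further evidence for them.

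Spleen and BM mature basophils passed the same sort gate in 2 tissues. Lilrb4a was lower in the spleen and was the only receptor called, where 7.83% of all tested genes were called and 4.67% were called lower. The libraries of both tissues did not overlap for 6 receptors (33.7% of tested genes). Of these Cd200r1, Cd200r3, Cd300lf and Lilrb4a were on the lower side in the spleen, and Cd300ld and Pirb on the higher side. The median log2 fold change was -0.26 for the receptors and 0.01 for all tested genes. For the 10 basophil markers it was -0.37, with 3 called lower and 0 higher.

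**Figure D3:**
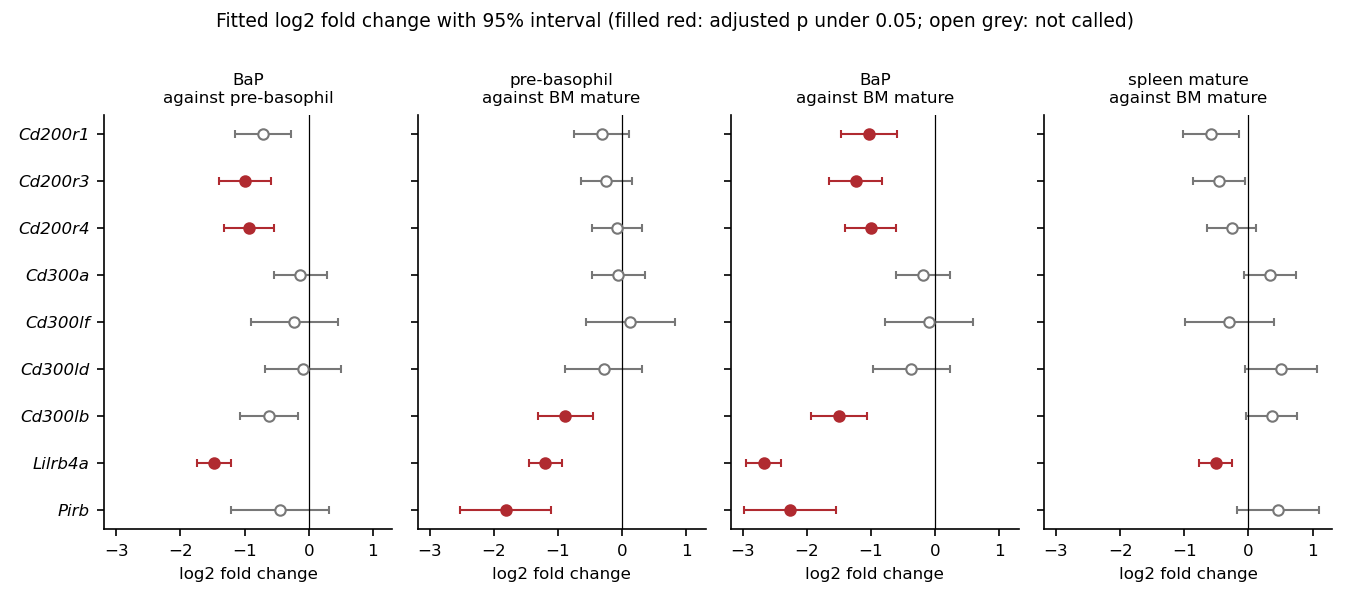
Fitted log2 fold change of each receptor in 4 comparisons (x axes, log2 scale), with 95% intervals. Filled red points had an edgeR adjusted p under 0.05, all of them below 0, with 3, 3, 6 and 1 called from left to right.

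Cd200r1 encodes the inhibitory receptor for CD200. It had 72.1, 81.3 and 42.2 CPM in the BaP libraries, 92.2, 122 and 104 CPM in those of pre-basophils, 116, 149 and 130 CPM in those of BM mature and 98.3, 87.1 and 79.0 CPM in spleen mature basophils. All BaP libraries lay below all pre-basophil libraries, while neighbours in the order of the group means (BaP, spleen mature, pre-basophil, BM mature) overlapped. It was 2.04-fold lower in BaPs than in BM mature cells (log2 -1.03, SE 0.20, edgeR adjusted p 0.00103). Against pre-basophils the log2 fold change was -0.71 (SE 0.20) with an edgeR adjusted p of 0.0506. It passed with the replicate number as a block (log2 -0.74, edgeR adjusted p 0.0219), without BaP replicate 2 (log2 -0.91, 0.0240) and without BaP replicate 3 (log2 -0.46, 0.0435). Between spleen and BM mature cells the difference was -0.58 on the log2 scale (SE 0.20, edgeR adjusted p 0.0917), and without BaP replicate 3, which enters this comparison only through the shared estimate of the spread, the adjusted p was 0.0031.

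Cd200r3 encodes an activating receptor that pairs with DAP12. Its levels were 542, 584 and 294 CPM in the BaP libraries, 946, 982 and 906 CPM in those of pre-basophils, 1088, 1154 and 1111 CPM in those of BM mature and 812, 856 and 766 CPM in spleen mature basophils. No library of one group overlapped with any library of another, in the order BaP, spleen mature, pre-basophil and BM mature. Against pre-basophils the log2 fold change of BaPs was -0.999 (SE 0.19, edgeR adjusted p 0.00744), and against BM mature cells it was -1.24 (SE 0.19, edgeR adjusted p 0.000137). Without BaP replicate 3 the first difference was -0.74 on the log2 scale (edgeR adjusted p 9.15e-05). The differences of pre-basophils and of spleen mature from BM mature basophils were -0.24 (95% interval -0.65 to 0.16, edgeR adjusted p 0.371) and -0.46 (-0.87 to -0.06, 0.147), and without BaP replicate 3 their adjusted p values were 0.0338 and 0.00114. Relative to Fcer1a, the alpha chain of the IgE receptor, the counts of Cd200r3 were 0.381, 0.453 and 0.546 in the BaP libraries, with the highest ratio in BaP replicate 3, and the ratio was 0.602 ± 0.0401 for pre-basophils, 1.24 ± 0.0683 for BM mature and 1.55 ± 0.0915 for spleen mature basophils (SD of 3 libraries each).

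Cd200r4, another activating receptor of the family, had lower counts. Its 3 libraries ran from 19.5 to 27.3 CPM for BaPs, from 41.4 to 45.0 for pre-basophils, from 38.5 to 50.3 for BM mature and from 28.0 to 44.4 for spleen mature basophils. The BaP libraries lay below all others and the remaining 3 groups overlapped. Against pre-basophils BaPs differed by -0.93 on the log2 scale (SE 0.18, edgeR adjusted p 0.00929) and against BM mature cells by -1.004 (SE 0.18, 0.000565). Pre-basophils and BM mature basophils differed by -0.08 on the log2 scale (95% interval -0.46 to 0.31, edgeR adjusted p 0.790). With Cd200r2 it shared 2.99% of its 50-base words, and Cd200r2 had between 1 and 11 counts per library.

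The ratio of Cd200r1 to Cd200r3 varied less in BaPs than the level of either gene. Cd200r1 had 0.133, 0.139 and 0.144 counts per count of Cd200r3 in BaP replicates 1, 2 and 3, although the levels of both genes in replicate 3 were below those of the other libraries, whereas Cd200r4 had 0.0387, 0.0468 and 0.0663 counts per count of Cd200r3 there. In the other groups the ratio was 0.112 ± 0.0134 (pre-basophil), 0.118 ± 0.0114 (BM mature) and 0.109 ± 0.0107 (spleen mature; SD, n = 3 each). The ligand gene Cd200 had 6 counts over the 3 BaP libraries, 0 over those of pre-basophils and of BM mature cells and 10 over those of spleen mature cells, and was not tested.

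Cd300lb encodes an activating receptor that signals through DAP12. It had 10.3, 13.2 and 9.3 CPM in the BaP libraries, 15.9, 18.0 and 15.8 CPM in those of pre-basophils, 22.9, 35.1 and 33.1 CPM in those of BM mature and 48.5, 35.5 and 33.9 CPM in spleen mature basophils. The marrow groups did not overlap with each other, and both mature groups did. Pre-basophils were 1.84-fold lower than BM mature cells (log2 -0.88, SE 0.20, edgeR adjusted p 0.00488), and BaPs were 2.83-fold lower (log2 -1.503, SE 0.20, 5.07e-05). The step from BaPs to pre-basophils was not called (log2 -0.62, 95% interval -1.07 to -0.17, edgeR adjusted p 0.0899), nor was the difference between the mature groups (log2 0.36, -0.04 to 0.76, 0.256).

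Cd300a encodes an inhibitory receptor with ITIMs. It ran from 28.6 to 51.9 CPM in the BaP libraries, 43.0 to 50.1 CPM in those of pre-basophils, 42.9 to 51.6 CPM in those of BM mature and 50.9 to 65.8 CPM in spleen mature basophils. The lowest value was that of BaP replicate 3, and all neighbouring groups overlapped. The log2 fold changes were -0.13 for BaPs against pre-basophils (95% interval -0.55 to 0.28), -0.05 for pre-basophils against BM mature basophils (-0.47 to 0.36) and 0.34 for spleen against BM mature basophils (-0.07 to 0.75), with edgeR adjusted p values of 0.745, 0.867 and 0.291. Per count of Cd300lb there were 3.07 to 4.58 counts of Cd300a for BaPs, 2.49 to 3.16 for pre-basophils, 1.29 to 2.15 for BM mature and 1.34 to 1.86 for spleen mature basophils. The ratio of these neighbours on chromosome 11 was thus higher in every early library than in any mature one. It reflects Cd300lb, whose early libraries all lay below the mature ones, while those of Cd300a overlapped with them. How often ratios of other gene pairs separate in this way was not examined. The inhibitory receptor genes Lilrb4a and Pirb were also lower in all early libraries, so the ratio describes this pair only.

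Cd300ld, which encodes an activating receptor that uses the Fc receptor gamma chain, and Cd300lf, which encodes an inhibitory one, were near the lower end of what the libraries resolved. Cd300ld had 15 to 80 counts per library, with 3.58 to 5.66 CPM in the BaP libraries, 4.19 to 5.60 CPM in those of pre-basophils, 5.43 to 6.36 CPM in those of BM mature and 6.60 to 10.6 CPM in spleen mature basophils. The spleen libraries lay above all others, and the log2 fold change against BM mature basophils was 0.51 (95% interval -0.06 to 1.07, edgeR adjusted p 0.255). Cd300lf had 14 to 89 counts per library and 3.30, 4.78 and 8.62 CPM in the BaP libraries, the highest in BaP replicate 3, and 3.98 to 7.36 CPM in the other groups. Of its 4 pairwise log2 fold changes, between -0.30 and 0.13, none was called, and the 95% interval for BaPs against pre-basophils ran from -0.90 to 0.45. Without BaP replicate 3 that log2 fold change was -0.75 (edgeR adjusted p 0.128).

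Lilrb4a differed between all neighbouring groups of the marrow. It had 493, 450 and 405 CPM in the BaP libraries, 1276, 1211 and 1269 CPM in those of pre-basophils, 3045, 2529 and 3015 CPM in those of BM mature and 1835, 2233 and 1955 CPM in spleen mature basophils. No group overlapped with another, in the order BaP, pre-basophil, spleen mature and BM mature. It was 2.79-fold lower in BaPs than in pre-basophils (log2 -1.48, SE 0.12, edgeR adjusted p 3.05e-05), 2.29-fold lower in pre-basophils than in BM mature cells (log2 -1.19, SE 0.12, 1.32e-05) and 6.37-fold lower in BaPs than in BM mature cells (log2 -2.67, SE 0.13, 1.03e-08). BaP replicate 3 was the lowest library, and without it the log2 fold change against pre-basophils was -1.40.

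In the spleen Lilrb4a was 1.43-fold lower than in BM mature cells (log2 -0.51, SE 0.12, edgeR adjusted p 0.0233). The call was lost without BM mature replicate 1 (edgeR adjusted p 0.0987), BM mature replicate 3 (0.0821), spleen mature replicate 1 (0.0777) or spleen mature replicate 3 (0.0957), with a log2 fold change of -0.59 to -0.45 over all libraries left out in turn, and without BaP replicate 3 the adjusted p was 0.00187.

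The LILRB4 locus holds near-identical rows, and reads of Lilrb4a can be assigned to them, so its level is uncertain. The first 120 coding bases of Lilrb4a and Lilr4b (the row that encodes gp49A, which lacks ITIMs) come from the transcript of each with the longest coding sequence. They are shown because they differ at only 2 positions, 35 and 84 from the first coding base, which are set in capitals. They are GENCODE M21 sequences from the plus strand of chromosome 10 of GRCm38.

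Lilrb4a: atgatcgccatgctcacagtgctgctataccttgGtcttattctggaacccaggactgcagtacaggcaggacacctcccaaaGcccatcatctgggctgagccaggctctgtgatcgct

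Lilr4b: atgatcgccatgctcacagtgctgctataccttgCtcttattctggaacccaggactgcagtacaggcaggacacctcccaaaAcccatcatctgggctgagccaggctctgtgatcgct

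Over 1379 aligned transcript bases 96.6% were identical. Of the distinct 50-base words in Lilrb4a transcripts, 46.7% also occurred in another gene, 33.7% in Gm49339 and 26.1% in Lilr4b. Gm49339 is an annotated gene that spans both others (chromosome 10, 51480612 to 51496613), and the sources used here do not say how reads that match several rows were assigned. Lilr4b ran from 864 to 983 CPM in the BaP libraries, from 2751 to 3017 in those of pre-basophils, from 6144 to 7909 in those of BM mature and from 4148 to 4947 in those of spleen mature basophils. In the same order, Gm49339 ran from 59.9 to 67.1, from 193 to 200, from 448 to 511 and from 361 to 429 CPM. The groups stood in the same order in all 3 rows. With the 3 rows summed, an alternative chosen after seeing the data, the log2 fold changes were -1.60 for BaPs against pre-basophils, -1.28 for pre-basophils against BM mature basophils and -0.61 for spleen against BM mature basophils (edgeR adjusted p 2.81e-05, 1.08e-05 and 0.0123). The counts of Lilrb4a per count of Lilr4b were 0.488 ± 0.0174 for BaPs, 0.432 ± 0.0101 for pre-basophils, 0.400 ± 0.0135 for BM mature and 0.449 ± 0.00534 for spleen mature basophils (SD of 3 libraries each).

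**Figure D4:**
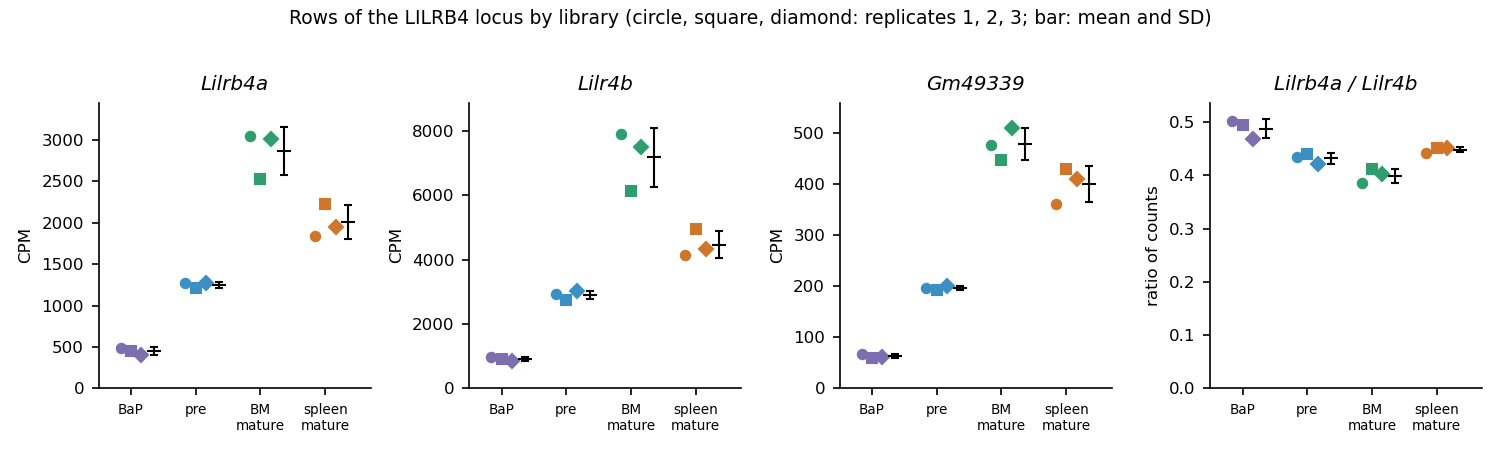
Levels in CPM (y axes, from 0) of the 3 rows of the LILRB4 locus and, at the right, the ratio of Lilrb4a to Lilr4b counts in every library of the 4 groups, with bars for the mean and SD. All 3 rows were lowest in BaPs and highest in BM mature basophils, while the ratio stayed between 0.385 and 0.502.

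Pirb encodes the inhibitory paired immunoglobulin-like receptor B, which binds MHC class I. It had 2.87, 7.78 and 13.0 CPM in the BaP libraries, 7.83, 10.7 and 15.4 CPM in those of pre-basophils, 35.3, 42.6 and 44.0 CPM in those of BM mature and 52.0, 54.3 and 61.6 CPM in spleen mature basophils. BaPs and pre-basophils overlapped, and every mature library lay above both, with those of the spleen highest. Pirb was 3.51-fold lower in pre-basophils than in BM mature cells (log2 -1.81, SE 0.33, edgeR adjusted p 0.0012) and 4.79-fold lower in BaPs (log2 -2.26, SE 0.34, 0.000102). Without BaP replicate 3, its highest library of that group, the value for BaPs against BM mature cells was 7.58-fold (log2 -2.92, edgeR adjusted p 2.11e-07). Between BaPs and pre-basophils the log2 fold change was -0.45 (95% interval -1.21 to 0.32, edgeR adjusted p 0.502), and without BaP replicate 3 it was -1.12 and called (0.0318). Between spleen and BM mature basophils it was 0.46 (-0.18 to 1.10, edgeR adjusted p 0.370), beside B cell markers that were higher in the spleen libraries, whose part in it was not tested.

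Pirb shared 34.0% of its 50-base words with other genes, most with Gm14548 (17.7%) and with Pira2 (16.8%), an activating PIR-A receptor, so that its reads too are uncertain. Pira2 had 0, 2 and 33 counts and Gm14548 0, 0 and 33 counts in BaP replicates 1, 2 and 3, where Pirb had 12, 33 and 134. In the other groups Pira2 had at most 16 and Gm14548 at most 10 counts per library. With the 3 rows summed, chosen after seeing the data, the log2 fold changes of pre-basophils and of BaPs against BM mature cells were -1.78 and -1.96 (edgeR adjusted p 0.00476 and 0.00117), and that of BaPs against pre-basophils was -0.18 (0.853).

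Of the other rows of these families, 12 of 24 listed were in the table and 4 were tested. Of these 4, Lilr4b was called, and Cd300c2, Lilra6 and Pira2 were not called in any comparison, with edgeR adjusted p values of at least 0.122. Gm49339, described above, was not in that list. No member of the CD300 family shared more than 3.89% of its 50-base words with other genes.

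The adaptors and proximal signalling molecules through which these receptors act were taken from a list of 25 genes, of which 24 were tested. In BaPs 5 were lower and 1 was higher than in pre-basophils, where 4.29% of all tested genes were called lower and 2.79% higher, the median over the list being -0.23 on the log2 scale. In pre-basophils 7 were lower and 0 higher than in BM mature basophils, with a median of -0.19, against 11.0% and 16.3% of all tested genes. In the spleen 2 were higher and 1 was lower, with a median of 0.20, against 3.16% and 4.67%. BaPs differed from BM mature basophils in 12 lower and 6 higher genes, with a median of -0.30, against 19.7% and 25.3%. Without BaP replicate 3, 23 genes of the list were tested. Of these 8 were lower and 1 was higher in BaPs than in pre-basophils, where 12.4% of all tested genes were then called. Against BM mature basophils 13 were lower and 3 higher in BaPs (51.3% of all tested genes called). For pre-basophils against BM mature basophils 8 were lower and 0 higher (35.7%), and in the spleen 3 were lower and 4 higher (18.0%). Tyrobp, the DAP12 adaptor of the activating CD200R receptors and of CD300LB, was the most abundant, running from 835 to 1240 CPM over the BaP libraries, 1852 to 2038 over those of pre-basophils, 2671 to 3254 over those of BM mature and 2141 to 2454 over those of spleen mature basophils. Tyrobp had a log2 fold change of -0.80 for BaPs against pre-basophils and -0.60 for pre-basophils against BM mature basophils (SE 0.15 each, edgeR adjusted p 0.00675 and 0.00828).

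The kinase Syk, which binds the ITAMs of such adaptors, and the kinase Btk were also lower in pre-basophils than in BM mature basophils (log2 -0.73 and -0.67, edgeR adjusted p 0.00178 and 0.000589). Btk and the transmembrane adaptor Lat2 were lower in BaPs than in pre-basophils (log2 -0.65 and -0.82, edgeR adjusted p 0.0045 and 0.00744). Ptpn6, the phosphatase SHP-1 that ITIMs recruit, was higher in spleen mature cells, at 132 ± 3.07 against 80.7 ± 5.53 CPM in the bone marrow (SD of 3 libraries each, log2 0.71, edgeR adjusted p 0.00293), as was the phospholipase gene Plcg2 (log2 0.55, 0.0335), whose call was lost without any single mature library or pre-basophil replicate 2 (0.0538 to 0.134). Fcer1g, the gamma chain, was lower in the spleen, with 1034 ± 127 against 1646 ± 115 CPM (SD of 3 libraries each, log2 -0.67, edgeR adjusted p 0.0335), and its call was lost without any single mature library or pre-basophil replicate 1 or 2 (0.0513 to 0.144). Cbl had 27.9, 28.1 and 123 CPM in the BaP libraries against at most 26.6 CPM in those of BM mature, so that BaP replicate 3 stood apart from the others. Its log2 fold change was 1.41 (edgeR adjusted p 0.0176) with that library and 0.29 (0.139) without it, and the call was also lost without BM mature replicate 1 (0.0561) or 2 (0.0618). Ptpn11 and Plcg2 were higher in BaPs than in BM mature basophils (log2 0.48 and 0.40, edgeR adjusted p 0.0251 and 0.0354). These calls were lost without BaP replicate 1 or BM mature replicate 2 or 3, and that of Plcg2 also without BM mature replicate 1 (edgeR adjusted p 0.0519 to 0.137).

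Other paired or inhibitory myeloid receptors were compared from a list of 47 genes, of which 30 were tested. In pre-basophils 9 were higher and 3 lower than in BM mature basophils (median log2 fold change 0.19), against 16.3% of all tested genes called higher and 11.0% lower. In BaPs 9 were higher and 6 lower than in BM mature basophils (0.57), against 25.3% and 19.7%. Relative to pre-basophils, 0 were higher and 3 lower in BaPs (-0.25), against 2.79% and 4.29%, and in the spleen 1 was higher and 4 were lower than in BM mature basophils (-0.01), against 3.16% and 4.67%. Without BaP replicate 3, 28 genes of the list were tested. Of these 10 were higher and 6 lower in pre-basophils than in BM mature basophils, where 35.7% of all tested genes were then called. Against BM mature basophils 8 were higher and 10 lower in BaPs (51.3% of all tested genes called). For BaPs against pre-basophils 1 was higher and 4 were lower (12.4%), and in the spleen 4 were higher and 8 lower (18.0%). Lair1, an inhibitory collagen receptor, was higher in pre-basophils at 78.0 ± 9.12 CPM than in BM mature cells at 20.9 ± 1.56 CPM (SD of 3 libraries each, log2 1.89, edgeR adjusted p 0.000134). Trem1, a DAP12-coupled receptor of neutrophils and monocytes, had 7.55, 4.87 and 21.7 CPM in the pre-basophil libraries against 2.55, 0.501 and 0.562 CPM in those of BM mature, with a log2 fold change of 3.41 (edgeR adjusted p 0.00231). This was 2.49 (edgeR adjusted p 0.0144) without pre-basophil replicate 3 and 4.39 (0.00272) without BM mature replicate 1. Of the 13 neutrophil markers, 9 were called higher and 1 lower in pre-basophils than in BM mature basophils, and their part in the Trem1 change was not tested. Ceacam1, which carries ITIMs, was higher in pre-basophils (log2 1.07, edgeR adjusted p 0.00572) and lower in the spleen than in the bone marrow (log2 -1.004, 0.0373), the latter call being lost without any single mature or pre-basophil library (0.0506 to 0.132).

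Siglecf, Cd244a and Cd84 were lower in pre-basophils than in BM mature cells. Siglecf, an inhibitory sialic acid receptor, was at 21.7 ± 2.31 against 49.9 ± 3.90 CPM (SD of 3 libraries each, log2 -1.21, edgeR adjusted p 5.75e-05), and the SLAM family receptors Cd244a and Cd84 differed by -0.70 and -0.67 on the log2 scale (edgeR adjusted p 0.000494 and 0.000455). Cd244a, Cd84 and Treml2 were lower in BaPs than in pre-basophils (log2 -0.89, -0.66 and -0.51, edgeR adjusted p 0.000745, 0.00317 and 0.035), and the call of Treml2 was lost without any single pre-basophil library or BM mature replicate 1 or 2 (0.0523 to 0.153). Clec4e, the FcR gamma-coupled lectin Mincle, was lower in spleen mature cells, at 11.4 ± 1.56 against 58.4 ± 20.7 CPM in the bone marrow (SD of 3 libraries each, log2 -2.34, edgeR adjusted p 0.00221), and Cd48, the ligand of CD244, was also lower there (log2 -0.73, 0.00654). Fcgr3, the most abundant gene of the list, had 346 ± 25.4 to 451 ± 45.8 CPM in the pre-basophil and mature groups and 322 ± 127 CPM in BaPs.

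Over the 12 libraries, which share groups and depth, the patterns of the receptors fell into unequal degrees of likeness, given as Pearson's r of log2 CPM and as a description only. The CD200R genes were alike, with r of 0.95 for Cd200r1 with Cd200r3, 0.91 for Cd200r3 with Cd200r4 and 0.88 for Cd200r1 with Cd200r4, and 0.88, 0.89 and 0.81 without BaP replicate 3. Cd300lb and Pirb, which lie on different chromosomes, had an r of 0.89, and 0.94 without that library. Lilrb4a had 0.85 with Cd200r3, 0.85 with Cd300lb and 0.81 with Pirb. Within the CD300 family the values ran from -0.50 (Cd300ld with Cd300lf) to 0.73 (Cd300lb with Cd300ld). Cd300lf had an r of -0.01 with Cd200r3, and of 0.73 without BaP replicate 3.

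Outside the set, the tested genes closest to each receptor by the same measure were Lilr4b (0.999) and Ccl3 (0.995) for Lilrb4a, Alox5ap (0.990) and Acss2 (0.982) for Cd200r3, and Tmem59 (0.983) and Prdx5 (0.966) for Cd200r1. Baz2a (0.988) and Gimap1 (0.986) were closest to Pirb, Fut4 (0.985) and Eloa (0.981) to Cd300lb, and Ang (0.955) and Tnnt1 (0.949) to Cd200r4. For Cd300a these were 5830444B04Rik (0.933) and Rad51d (0.913), for Cd300ld Kin and Gse1 (both 0.930), and for Cd300lf Rab8b (0.854) and Fzd5 (0.831).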

How the data were processed

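Basophil-lineage cells were profiled by bulk RNA sequencing of amplified cDNA in 12 libraries, 3 per group, grouped by their titles. The deposited values are raw read counts per gene, which the authors made by trimming with Cutadapt 3.4 and mapping with Bowtie2 2.4.2. The study's methods name GRCm38 and the submitters' processing notes GRCm39 as reference, and no UMIs, strand setting or treatment of multiply mapping reads are given in the sources used here. With 3596108 to 8151030 counts per library, 3 counts corresponded to 0.29 to 0.955 CPM, and counting error alone is covered by such a floor. Columns of other series numbered 0.

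Counts were tested with edgeR 4.0.16 (R 4.3.3) by its quasi-likelihood test after filterByExpr and TMM, with a coefficient for each of the 4 groups over all 12 libraries and Benjamini-Hochberg adjustment over 15083 genes. A call was an adjusted p under 0.05, SE was the log2 fold change over the square root of the test statistic, and intervals are 95%. DESeq2 1.42.0, limma 3.58.1 (voom) and the other alternatives are given at the end. The study's own tool, TCC, was replaced by edgeR. The script was tested on simulated data. Within a group, libraries differed by a chi-square per degree of freedom of 4.16 to 35, so no pair was counted as 1 sample. Same-numbered bone marrow libraries deviated together from their group means (r 0.125 to 0.262 over all 9 pairs), so the replicate numbers may pair these. Same-numbered libraries of spleen and bone marrow did not (r 0.0076 to 0.0254). Replicate 3 was also the deepest library of each marrow group, with 8006769, 6251090 and 6329357 counts in BaPs, pre-basophils and BM mature cells. Libraries of unlike number were not compared, so pairing and depth cannot be told apart here. The main fit used no pairing, so its p-values are unpaired, and the replicate number entered as a block only in an alternative.

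Lists and receptors were chosen with earlier results of these data known. Named were all 9 receptors, the 2 non-members most like each (prior count 2), and of each receptor or adaptor list the most abundant gene and up to 3 called genes per comparison and direction whose mean in the higher group reached 10 CPM, taken by largest change, besides the sort genes. Marker lists are given by their sums. Calls of the basophil and neutrophil lists, and the values of Prss34, Mcpt8, Mpo, S100a8 and Cxcr2, were added after they were seen. Gm49339, Gm14548, Cd200, Cd200r2, Cd300c2, Lilra6, Pira2 and Fcer1a were added after their values were seen. Leaving out libraries for the list genes was also chosen after seeing the data. Coordinates and shared 50-base words came from GENCODE M21, promoters from RefSeq (GRCm38.p6). Protein sequences were not used here.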

Additional observations from a re-analysis of the deposited data

How the results depend on the processing

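Across 900 values of a receptor in the pairwise comparisons, under an alternative setting or with a library left out, 851 kept their direction and their side of the threshold. These include receptors that were not called and stayed so, and the settings with summed rows, which change the counts of only 1 receptor. The test among the 4 groups is not part of this count. None of the calls for Lilrb4a, Pirb or Cd300lb against BM mature basophils within the bone marrow was lost, apart from Cd300lb in pre-basophils under a minimum change of 1.5-fold (edgeR adjusted p 0.174). The reversals concerned receptors that were not called. Library size alone, which placed the median over all genes at 0.22 on the log2 scale for pre-basophils against BM mature cells, 0.23 for BaPs against pre-basophils, 0.14 for the spleen and 0.48 for BaPs against BM mature cells, gave log2 fold changes of 0.14 for Cd200r4 and 0.16 for Cd300a in the first comparison, 0.050 for Cd300a, 0.013 for Cd300lf and 0.12 for Cd300ld in the second and 0.21, 0.37 and 0.052 for the same genes in the last. DEGES scaling gave 0.012 for Cd200r4 and 0.034 for Cd300a in the first. With libraries left out in turn, the log2 fold changes of pre-basophils against BM mature basophils ran from -0.17 to 0.019 for Cd200r4 and -0.13 to 0.011 for Cd300a, those of BaPs against pre-basophils from -0.31 to 0.11 for Cd300a, -0.27 to 0.090 for Cd300ld and -0.75 to 0.024 for Cd300lf, and those of BaPs against BM mature basophils from -0.35 to 0.061 for Cd300a and -0.60 to 0.17 for Cd300lf.

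The number of called receptors changed as follows. For pre-basophils against BM mature basophils it was 5 in a fit of these 2 groups only. For BaPs against pre-basophils it was 5 without the filter, 1 with a minimum change of 1.5-fold (Lilrb4a) and 3 to 5 with libraries left out, and in the fit of these groups only Cd200r3 had an adjusted p of 0.0593. For spleen against BM mature basophils it was 3 without the filter, 4 in the fit of both groups only, 2 with the replicate number as a block, where numbers do not pair these tissues, 0 with a minimum change of 1.5-fold, and 0 to 3 with libraries left out. The block changed no other call than that of Cd200r1 in this comparison (edgeR adjusted p 0.0478) and in BaPs against pre-basophils. Cd300ld lost its call among the 4 groups under library size alone (0.0733), DEGES scaling (0.0839), DESeq2 (0.0507) and no filter (0.0664), and Cd300a gained one without the filter (0.0223). Cd200r1 in BaPs against pre-basophils also passed in DESeq2, limma-voom, upper-quartile and DEGES scaling and without the filter (adjusted p 0.000178 to 0.0478). The cause of these changes was not tested.

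Over the whole table, calls between pre-basophils and BM mature basophils fell from 4112 to 1219 with a minimum change of 1.5-fold, and those between BaPs and BM mature basophils from 6785 to 3367. Between BaPs and pre-basophils they went from 1068 to 1620 (library size alone), 2091 (no filter), 51 (1.5-fold), 375 (these groups only) and 382 to 1831 (libraries left out), and between spleen and BM mature basophils from 1181 to 1796 (no filter), 62 (1.5-fold), 2340 (these groups only) and 241 to 2653 (libraries left out). The share of calls that were higher in the first group went from 59.8%, 39.4%, 40.4% and 56.3% to 82.5%, 79.6%, 60.6% and 82.9% under library size alone. Depth limits Cd300ld, Cd300lf and, in BaPs, Pirb, which had 12 to 134 counts per library there.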
